A study of Mus musculus with 6 samples.

Results

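The unfolded protein response is described here through 10 genes of its sensors and of its ATF4 branch: the sensors Ern1, Eif2ak3 and Atf6, the transcription factors Xbp1, Atf4 and Ddit3, and Ppp1r15a, Trib3, Chac1 and Asns, which ATF4 and the Ddit3 product CHOP switch on. They were found by gene symbol among the 19613 rows of a deposited FPKM table of mouse liver, and all 10 passed the filter on low values that left 9218 genes for testing. The livers came from 3 libraries of knockout (KO) mice and 3 of wild-type (WT) mice. All the mice, of either genotype, received lipopolysaccharide (LPS, a bacterial endotoxin) intraperitoneally at a dose of 15 mg/kg, 6 h before the liver was taken. No untreated liver was in the samples used here, so the comparison is of genotype under endotoxin, and it was read for which branch of the response accompanied the higher levels of endoplasmic reticulum (ER) chaperones in KO. No strain, sex or age is labelled, nor whether each library is another mouse, so the p-values hold for the spread among these libraries, which may be technical.

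In the ER, unfolded protein is sensed by 3 membrane proteins. IRE1 (gene Ern1) cuts the Xbp1 messenger RNA so that it codes for an active transcription factor; PERK (gene Eif2ak3) phosphorylates the initiation factor eIF2, which slows protein synthesis but favours translation of Atf4; and ATF6 moves to the Golgi, where proteases release its transcription factor. XBP1 and ATF6 raise chaperones, translocation and degradation genes, whereas ATF4 raises amino acid genes and CHOP. Much of this control acts by splicing, translation or cleavage, so a gene-level RNA value of Xbp1, Atf4 or Atf6 does not report the active form, and spliced and unspliced Xbp1 share 1 row of the table. Hepatocytes secrete plasma proteins in bulk and depend on this system.

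The promoters were compared for the letters of the elements these factors are known to bind, to show which of these letters stand near the starts of the ATF6 targets, the ER chaperones and the 10 genes. The sequences are RefSeq windows of GRCm38.p6, 5′ to 3′ on the strand of the gene, and a match is a description and no sign of binding. The ER stress element was searched as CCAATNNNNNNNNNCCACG on both strands, the composite element of ATF4 and C/EBP factors as TGATGNAA, and the cyclic AMP response element as TGACGTCA. Capitals mark the match. These are 3 chaperone or degradation genes with an ER stress element and 4 of the 10 genes with another element.
Hspa5 (chr2:34772020-34772048, plus strand): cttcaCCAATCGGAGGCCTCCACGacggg
Creld2 (chr15:88819480-88819578, plus strand): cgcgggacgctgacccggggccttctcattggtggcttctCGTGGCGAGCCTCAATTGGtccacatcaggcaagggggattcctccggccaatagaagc
Derl3 (chr10:75893202-75893300, plus strand): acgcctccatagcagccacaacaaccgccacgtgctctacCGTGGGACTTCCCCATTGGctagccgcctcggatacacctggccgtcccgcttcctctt
Chac1 (chr2:119351009-119351096, plus strand): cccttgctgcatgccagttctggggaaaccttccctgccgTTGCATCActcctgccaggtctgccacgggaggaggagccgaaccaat
Asns (chr6:7693214-7693243, minus strand): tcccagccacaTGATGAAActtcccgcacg
Trib3 (chr2:152344028-152344057, minus strand): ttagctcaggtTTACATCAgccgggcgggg
Ppp1r15a (chr7:45526269-45526320, minus strand): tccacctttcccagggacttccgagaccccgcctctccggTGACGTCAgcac

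The ER stress element stood in 0.119% of all 32851 windows of 300 bases, in 8 of the 13 ATF6 target genes that had a window, in 7 of 18 ER chaperone genes and in 0 of 9 of the 10 genes (Atf6 had no entry). The 8 were Calr, Creld2, Derl3, Ero1b, Hsp90b1, Hspa5, Pdia6 and Syvn1. The share of all is of windows, whereas the list counts are of genes with a match in any of their windows. The IRE1-XBP1 and ATF4 target lists used below were not searched, so these counts do not set the ATF6 targets apart from them. The ATF4 composite element stood in 3.97% of all windows, in 3 of the 9, the 3 printed, in 1 of the 18 ER chaperone genes (Txndc5) and in 1 of the 13 ATF6 targets (Herpud1). In Asns it ended 15 bases before the RefSeq start, in Chac1 185 bases before it, and in Trib3 it lay just after the start. The cyclic AMP response element stood in 1.79% of all windows and in Ppp1r15a alone of the 9, 4 bases before the start. ER stress element II (0.0365% of windows) stood in 2 of the 13 ATF6 targets (Dnajb11 and Herpud1) and in 1 of the 18 ER chaperone genes (Dnajb11). The XBP1 element (TGACGTGG, 0.676%) stood in 1 of the 18 (Txndc5) and in 0 of the 13. Neither element had a match in the 9.

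The depth was high for all 10 genes. Whole reads recovered from the FPKM steps came to between 23441928 and 40423628 per library (the rows COX1 and Alb left out), and those of the 10 genes ranged from 203 for Asns in WT replicate 2 to 24952 for Xbp1 in KO replicate 3. The deposited values lay higher in KO over all genes, with a median log2 fold change of 0.454. Levels were therefore divided by a median-of-ratios factor per library, which brought that median to -0.00498. Scaled FPKM values are used below unless the deposited values are named. Fold changes are differences of log2(scaled FPKM + 1), KO minus WT, tested with limma. At an adjusted p of 0.05, 99 of the 9218 genes were called, 44 higher (0.477%) and 55 lower (0.597%) in KO.

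None of the 10 genes passed this threshold in limma, against 1.07% of all genes, and limma-voom on the recovered reads called 0. At an unadjusted p under 0.05, 3 of the 10 lay higher in KO (Ddit3, Eif2ak3 and Asns), against 6.79% of all genes, and 0 lay lower, against 7.31%. The 10 were not uniform. Ddit3, the gene of the pro-apoptotic factor CHOP, had a log2 fold change of 0.88, beside 0.84 for the chaperone Hspa5, with Eif2ak3 and Ppp1r15a higher in each KO library by less and overlapping groups in the other 7 genes. Thus 3 of the 10 had every KO library above every WT library, against 10.3% of all tested genes, and 0 had every KO library below, against 9.88%. Fold changes were positive for 6 of the 10, against 49% of all genes. The 10 were chosen with earlier results of these data known, so these shares are no independent evidence of a shift. The median log2 fold change of the 10 was 0.13, beside -0.00495 for all genes. It was 0.0785 without KO replicate 1, 0.2494 without KO replicate 2 and 0.0744 without KO replicate 3. As deposited, 5 of the 10 passed (Ddit3, Eif2ak3, Ppp1r15a, Trib3 and Asns, all higher), in a fit that called 28.7% of all genes higher.

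**Figure D1:**
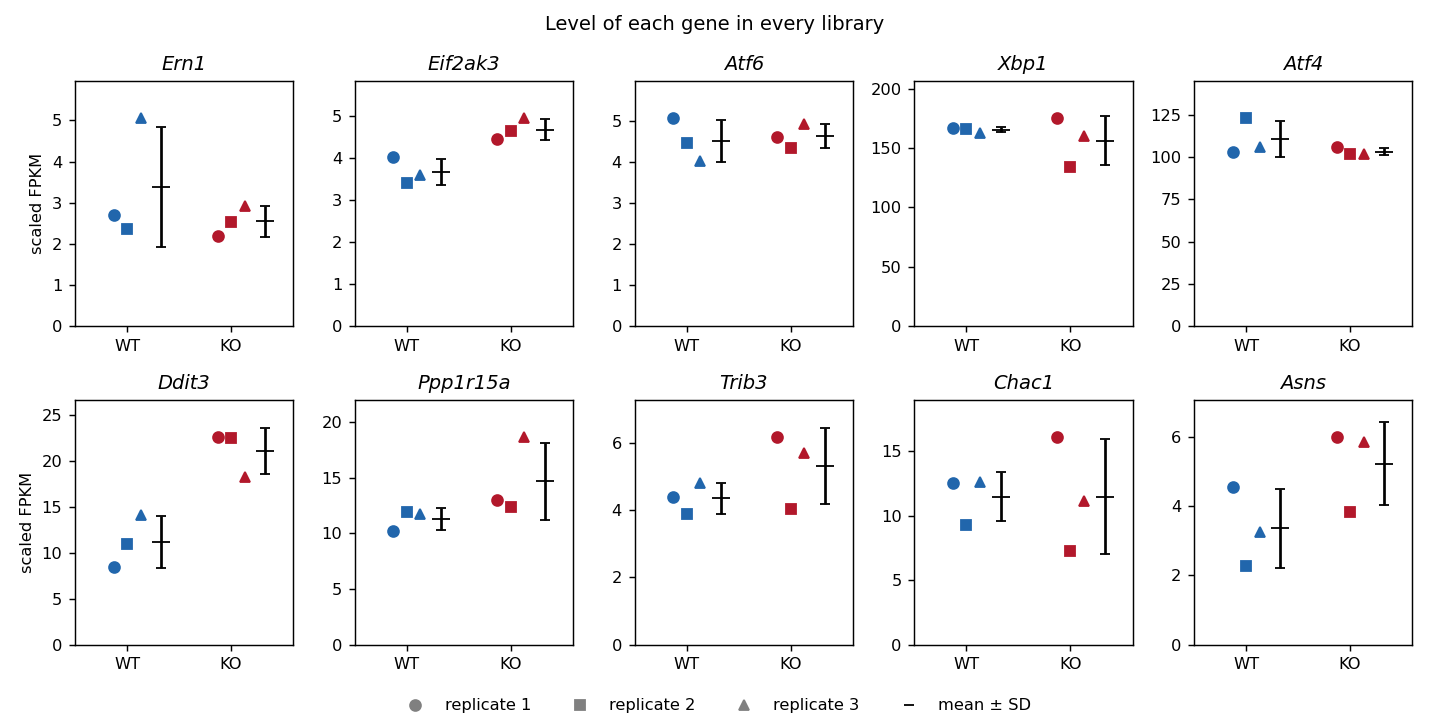
Scaled FPKM (y axes, from 0) of each of the 10 genes in the 3 WT (blue) and 3 KO (red) libraries, with the mean and SD in black; the shape of a point gives the replicate number. The KO points of Ddit3, from 18.2 to 22.6, lie above the WT points, from 8.48 to 14.1. Those of Xbp1 lie on either side of the WT points, and those of Atf4 lie among or below them.

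Among the sensors, Eif2ak3, the PERK kinase that phosphorylates eIF2, stood at 4.45, 4.65 and 4.95 FPKM in KO replicates 1 to 3 and at 4.02, 3.40 and 3.60 FPKM in WT replicates 1 to 3. All KO libraries were above all WT libraries, but the gap between the closest of them was small. The log2 fold change was 0.28 with a 95% interval of 0.04 to 0.52 (limma, unadjusted p = 0.0257), and it did not pass over all genes (adjusted p = 0.283). In the GENCODE M21 annotation 8.05% of its exonic bases are shared with a gene model on the other strand, and it was not possible to tell from the sources whether reads were counted by strand.

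Atf6, the precursor of the Golgi-cleaved factor, stood at 4.62, 4.35 and 4.93 FPKM in KO and at 5.07, 4.46 and 4.04 FPKM in WT. The groups overlapped throughout. Its log2 fold change was 0.03, with an interval of -0.23 to 0.29 (limma adjusted p = 0.938), and it turned to -0.01 without KO replicate 3 and to -0.03 without WT replicate 3. Ern1, which codes for IRE1, stood at 2.18, 2.53 and 2.92 FPKM in KO and at 2.71, 2.37 and 5.05 FPKM in WT. The WT mean rested on replicate 3, the highest of the 6 libraries by far. Its log2 fold change was -0.26, with an interval of -0.75 to 0.23 (limma adjusted p = 0.650), and -0.001 without WT replicate 3; in the deposited values it was 0.16 (adjusted p = 0.556).

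The transcription factors differed from each other. Xbp1, the substrate of IRE1, was the most abundant of the 10, at 175, 134 and 160 FPKM in KO and 167, 166 and 163 FPKM in WT. The WT libraries were nearly equal (166 ± 1.99 FPKM, SD, n = 3), and the KO libraries lay on either side of them (156 ± 20.6 FPKM). KO minus WT was -0.09, with an interval of -0.41 to 0.23 (limma adjusted p = 0.838); the sign was positive in the deposited values (0.48), with quantile normalization (0.02), as TPM (0.01) and without KO replicate 2 (0.02), and no setting called it.

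Atf4, the factor whose translation PERK favours, stood at 106, 102 and 102 FPKM in KO and at 103, 123 and 106 FPKM in WT. The KO libraries were tightly grouped and WT replicate 2 was the highest. Its log2 fold change was -0.09, with an interval of -0.38 to 0.19 (limma adjusted p = 0.795), and it was positive in the deposited values (0.47), with quantile normalization (0.03) and as TPM (0.01), called in none of them.

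Ddit3, a target of ATF4 whose product CHOP is linked to cell death under long stress, stood at 22.6, 22.5 and 18.2 FPKM in KO and at 8.48, 10.9 and 14.1 FPKM in WT. The lowest KO library exceeded the highest WT library. The means were 21.1 ± 2.50 and 11.2 ± 2.83 FPKM (SD, n = 3). The log2 fold change was 0.88, SE 0.18, with an interval of 0.46 to 1.29 (limma unadjusted p = 0.00114), and it just missed the threshold over all genes (adjusted p = 0.0760). It passed as TPM (adjusted p = 0.0328) and in the deposited values (1.41, limma adjusted p = 3.22e-07), but not with limma-voom on the reads (0.94, adjusted p = 0.0532) or with no filter on low values (adjusted p = 0.2036). With 1 library left out its log2 fold change ranged from 0.71 to 1.05 and its adjusted p from 0.0555 to 0.241. In GENCODE M21, 3.97% of the exonic bases of Ddit3 are shared with Mars, the methionyl-tRNA synthetase gene, on the other strand.

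**Figure D2:**
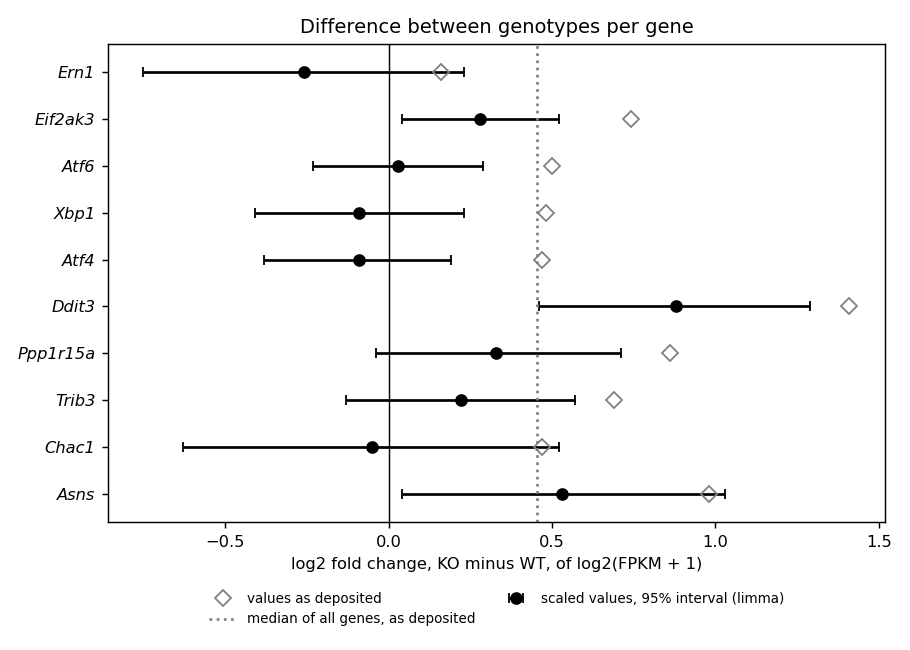
Log2 fold change of each gene, KO minus WT (x axis), with its 95% interval from limma on scaled values (black) and its value in the deposited table (open diamonds). The dotted line marks the median of all genes as deposited, 0.454. The intervals of Ddit3, Eif2ak3 and Asns lie above 0, and those of the other 7 genes include 0.

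Of the targets of ATF4 and CHOP, Ppp1r15a, which codes for GADD34, the phosphatase subunit that reverses eIF2 phosphorylation, stood at 13.0, 12.4 and 18.7 FPKM in KO and at 10.2, 11.9 and 11.8 FPKM in WT. The groups did not overlap, but KO replicate 2 and the upper WT libraries were close and KO replicate 3 was well above the rest. KO minus WT was 0.33 on the log2 scale, with an interval of -0.04 to 0.71 (limma adjusted p = 0.411), and 0.16 without KO replicate 3. Asns, the asparagine synthetase, stood at 6.01, 3.85 and 5.85 FPKM in KO and at 4.55, 2.26 and 3.27 FPKM in WT. KO replicate 2 was below WT replicate 1, so the groups overlapped. The difference was 0.53 on the log2 scale, with an interval of 0.04 to 1.03 (limma unadjusted p = 0.0386, adjusted p = 0.328), and it was 0.34 without WT replicate 2 and 0.73 without WT replicate 1.

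Trib3, a pseudokinase that CHOP and ATF4 induce and that holds ATF4 back, stood at 6.18, 4.03 and 5.71 FPKM in KO and at 4.40, 3.88 and 4.80 FPKM in WT, a log2 fold change of 0.22 (interval -0.13 to 0.57, limma adjusted p = 0.563), which was 0.12 without KO replicate 1 and 0.37 without KO replicate 2. KO replicate 2 lay among the WT libraries. Chac1, which breaks down glutathione, stood at 16.1, 7.22 and 11.1 FPKM in KO and at 12.5, 9.28 and 12.6 FPKM in WT. KO held both the highest and the lowest library, and the means were equal, 11.5 ± 4.43 and 11.5 ± 1.90 FPKM (SD, n = 3). Its log2 fold change of -0.05 (interval -0.63 to 0.52, limma adjusted p = 0.955) was 0.04 as TPM, 0.47 as deposited, 0.22 with KO replicate 2 left out, and 0.01 or 0.02 with WT replicate 1 or 3 left out. The 3 genes printed with an ATF4 composite element, Asns, Trib3 and Chac1, thus had log2 fold changes of 0.53, 0.22 and -0.05, none past the threshold.

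In order of mean level over the 6 libraries, per length of gene, Xbp1 (161 FPKM) stood above Atf4 (107), then Ddit3 (16.1), Ppp1r15a (13.0), Chac1 (11.5), Trib3 (4.83), Atf6 (4.58), Asns (4.30), Eif2ak3 (4.18) and Ern1 (2.96). The ranges of Xbp1 and Atf4, of Atf4 and Ddit3, and of Chac1 and Trib3 were apart. Every other pair of neighbours had overlapping ranges, so the order among Ddit3, Ppp1r15a and Chac1 and that from Trib3 to Ern1 is within the spread of the libraries. Ddit3 was above Ppp1r15a in 3 of the 6 libraries, the KO replicates 1 and 2 and WT replicate 3.

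The wider branches were followed in lists of genes tied to each factor by textbook knowledge. For comparison with the counts below, 0.477% of all tested genes were called higher and 0.597% lower in KO. Of all tested genes, 49% had a positive fold change and 10.3% had every KO library above every WT library. In the ATF6 target list, mostly chaperones, 6 of 15 genes rose, none fell, all 15 fold changes were positive, and the median was 0.76. Creld2, Sdf2l1, Pdia4, Hspa5, Derl3 and Hyou1 were the 6, and 13 of the 15 had every KO library above every WT library. Derl3 passed the filter through its KO libraries alone, at 3.73, 4.96 and 1.76 FPKM in KO and 0.274, 0.489 and 0.701 FPKM in WT. Its call thus comes from a gene kept for its high group, and limma-voom did not call it (adjusted p = 0.0608). Pdia4, a disulfide isomerase of the ER, stood at 121, 119 and 102 FPKM in KO and at 65.3, 57.4 and 53.5 FPKM in WT, which is 0.95 higher on the log2 scale (limma adjusted p = 0.0177). Hyou1, a large HSP70-like chaperone, stood at 65.8, 62.6 and 54.6 FPKM in KO and at 39.3, 32.2 and 35.5 FPKM in WT, which is 0.76 higher (limma adjusted p = 0.0382). Each KO library was well above each WT library in both genes. The rise of the chaperones in these samples was known when the lists were made, so the counts are no independent evidence of it. The ATF6 list holds 10 of the ER chaperones and the IRE1-XBP1 list 2. The contrast between these lists thus follows in part from how the chaperones were assigned, and it does not tell the branches apart. The ATF4 target lists in turn leave out Ddit3 (0.88), Asns (0.53), Trib3 (0.22) and Chac1 (-0.05), which were counted among the 10 genes. Their medians therefore do not cover the whole ATF4 branch.

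In the IRE1-XBP1 target list 2 of 23 genes rose, none fell, 19 were positive and the median was 0.18. Dnajb9, a co-chaperone that is among the best known targets of spliced XBP1, stood at 138, 116 and 138 FPKM in KO and at 72.5, 57.6 and 67.8 FPKM in WT, which is 0.98 higher on the log2 scale (limma adjusted p = 0.0192). Edem3, a mannosidase of ER-associated degradation, stood at 8.72, 9.33 and 8.47 FPKM in KO and at 5.43, 5.11 and 5.82 FPKM in WT, which is 0.61 higher (limma adjusted p = 0.0364). Neither gene had overlapping groups. The remaining genes of the list, which include the translocation channel and signal peptidase, ranged from -0.13 upward. Every KO library was above every WT library in 9 of the 23, against 10.3% of all tested genes. Next by p was Dnajc3, an inhibitor of PERK, at 0.49 (limma adjusted p = 0.167).

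The ATF4 target lists, which leave out Ddit3, Asns, Trib3 and Chac1, showed 1 gene each way. Among amino acid genes, 8 of 11 fold changes were positive with a median of 0.05, none rose, and Slc6a9, a glycine transporter, fell: 3.65, 4.08 and 3.93 FPKM in KO against 7.42, 8.97 and 6.76 FPKM in WT, with a difference of -0.83 on the log2 scale (limma adjusted p = 0.0210; in the deposited values -0.34, adjusted p = 0.219). Next by p, Aldh18a1, a proline synthesis enzyme, and Cth, the cystathionine lyase, had log2 fold changes of -0.49 and -0.36 (limma adjusted p = 0.174 and 0.276). Among the tRNA synthetases 11 of 12 fold changes were positive with a median of 0.16, and none passed; Wars1, Sars1 and Nars1 led with 0.50, 0.46 and 0.29 (limma adjusted p from 0.126 to 0.359).

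Among the stress regulators of the ATF4 and CHOP pathway 11 of 15 were positive with a median of 0.20, and 1 rose. That gene was Nupr1, a small chromatin protein induced by stress, at 7.15, 6.83 and 7.13 FPKM in KO against 3.57, 3.15 and 3.85 FPKM in WT, which is 0.83 higher on the log2 scale (limma adjusted p = 0.0111). Its libraries agreed closely within each genotype. Tnfrsf10b, the death receptor DR5, and Sesn2, a sestrin, had log2 fold changes of 0.57 and 0.45 with every KO library above every WT library (limma adjusted p = 0.108 and 0.210).

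Around eIF2, 13 of 15 genes of kinases, subunits, phosphatases and related proteins were positive with a median of 0.14 and none passed. Dnajc3, which is also in the IRE1-XBP1 and ER chaperone lists, led with 0.49 (limma adjusted p = 0.167). Ppp1r15b, the constitutive partner of Ppp1r15a, had 0.33 (limma adjusted p = 0.279) and the factor subunit gene Eif2s2 0.34 (adjusted p = 0.324). Of 9 tested genes of other sensors and regulators, 4 were positive, the median was -0.03 and none passed. Creb3l1, Creb3l3 and Creb3, ER-bound factors related to ATF6, had log2 fold changes of -0.24, 0.18 and 0.21 (limma adjusted p from 0.417 to 0.567). The smaller medians also moved with single libraries. That of the eIF2 list was 0.0364 without WT replicate 2, with 9 of 15 positive, and 0.2242 without WT replicate 1. The median of the amino acid genes was -0.048 without KO replicate 3 and -0.039 without WT replicate 2, with 5 of 11 positive in each, and 0.1743, 0.141 and 0.0776 without KO replicate 2, WT replicate 1 and WT replicate 3. For the stress regulators it was 0.0798 without KO replicate 3, 0.364 without KO replicate 2 and 0.3228 without WT replicate 1, and for the tRNA synthetases it was 0.1043 without WT replicate 2. Across the 6 fits the other sensors and regulators ranged from -0.0472 without WT replicate 3 to 0.0391 without KO replicate 2. In the list of ER chaperones as a whole, 6 of 21 rose and 20 were positive, with a median of 0.49; 10 of its genes are also in the ATF6 list and 2 in the IRE1-XBP1 list.

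**Figure D3:**
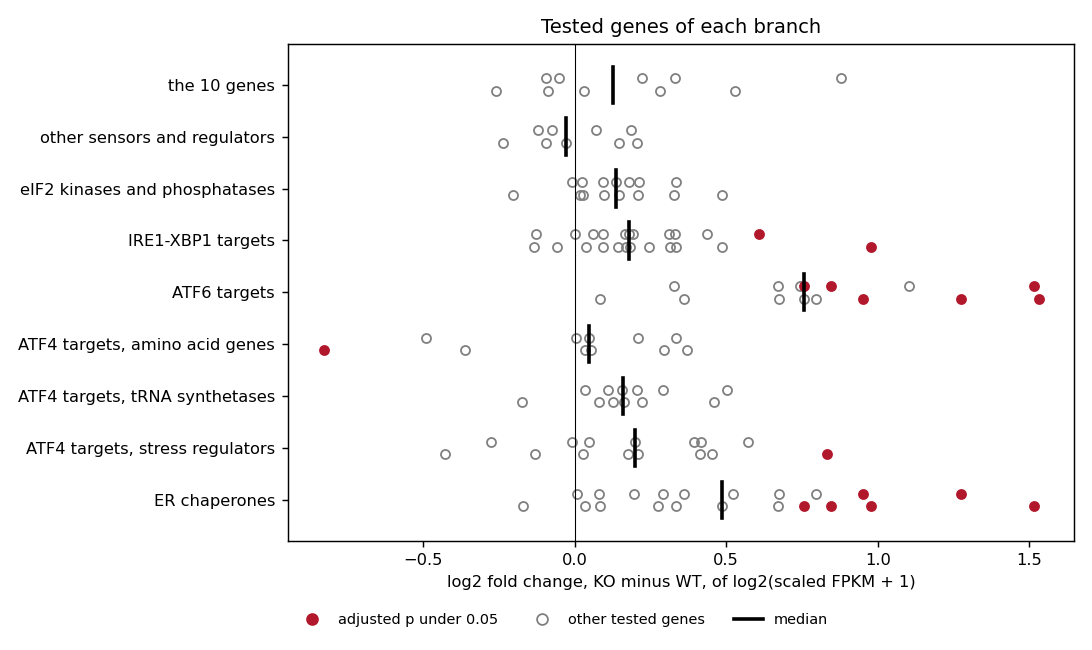
Log2 fold change, KO minus WT, of every tested gene of each list (x axis), with genes past the adjusted p of 0.05 filled and the median as a bar. The ATF6 target list has its median at 0.76 and the other target lists have theirs between 0.05 and 0.20. Genes can stand in more than 1 list, and the ATF6 list holds more of the ER chaperones than the IRE1-XBP1 list.

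These calls depended on single libraries and on the filter. With no filter on low values 1 ATF6 target (Creld2) and no IRE1-XBP1 target passed, and Nupr1 and Slc6a9 missed (limma adjusted p = 0.0522 and 0.0782). As deposited, where 28.7% of all genes were called higher, 15 of 15 ATF6 targets, 19 of 23 IRE1-XBP1 targets and 11 of 12 tRNA synthetases were called higher. Without KO replicate 1 the rises went from 6 to 0 in the ATF6 list, from 2 to 0 in the IRE1-XBP1 list and from 1 to 0 among the stress regulators, and the medians were then 0.71, 0.16 and 0.15. With any other library left out, 1 to 5 ATF6 targets passed (1 without WT replicate 3, 2 without KO replicate 2 or WT replicate 2, 3 without KO replicate 3). Dnajb9 also failed without KO replicate 3 (adjusted p = 0.0997) and without WT replicates 2 and 3 (0.0776 and 0.0676), Edem3 without any 1 library (adjusted p from 0.0635 to 0.156), Nupr1 without KO replicate 3 (0.0559), and Slc6a9 without KO replicate 1, KO replicate 3 or WT replicate 2 (0.122, 0.0868 and 0.0684; limma throughout).

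Ratios of genes within a library are free of any scaling between libraries, and were added after the values had been seen. Hspa5, the main ER chaperone, stood at 3.36, 3.62 and 3.01 times the FPKM of Xbp1 in KO and at 1.88, 1.64 and 1.70 times in WT. The KO ratios were all higher, 1.91-fold on average. Hspa5 over Atf4 was 1.92-fold higher in KO and Hspa5 over Atf6 1.75-fold higher, again without overlap.

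Ddit3 over Atf4 was 0.213, 0.221 and 0.179 in KO and 0.0827, 0.0890 and 0.133 in WT, so each KO library held more Ddit3 RNA per Atf4 RNA, 2.05-fold on average. Dnajb9 over Xbp1 was 2.11-fold higher in KO, from 0.787 to 0.864 against 0.347 to 0.434. Ddit3 over Hspa5 overlapped, with means of 0.0408 ± 0.00474 in KO and 0.0394 ± 0.0120 in WT (SD, n = 3). With 3 libraries against 3 the exact two-sided permutation test cannot go below p = 0.1. The 5 ratios without overlap gave this exact p (0.12 when adjusted over the 6 ratios computed), and Ddit3 over Hspa5 gave an exact p of 0.9. Apart from Ddit3 over Atf4, the 5 have Hspa5 or Dnajb9 as numerator, and both had already been called higher in KO. The 5 are thus not separate results.

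**Figure D4:**
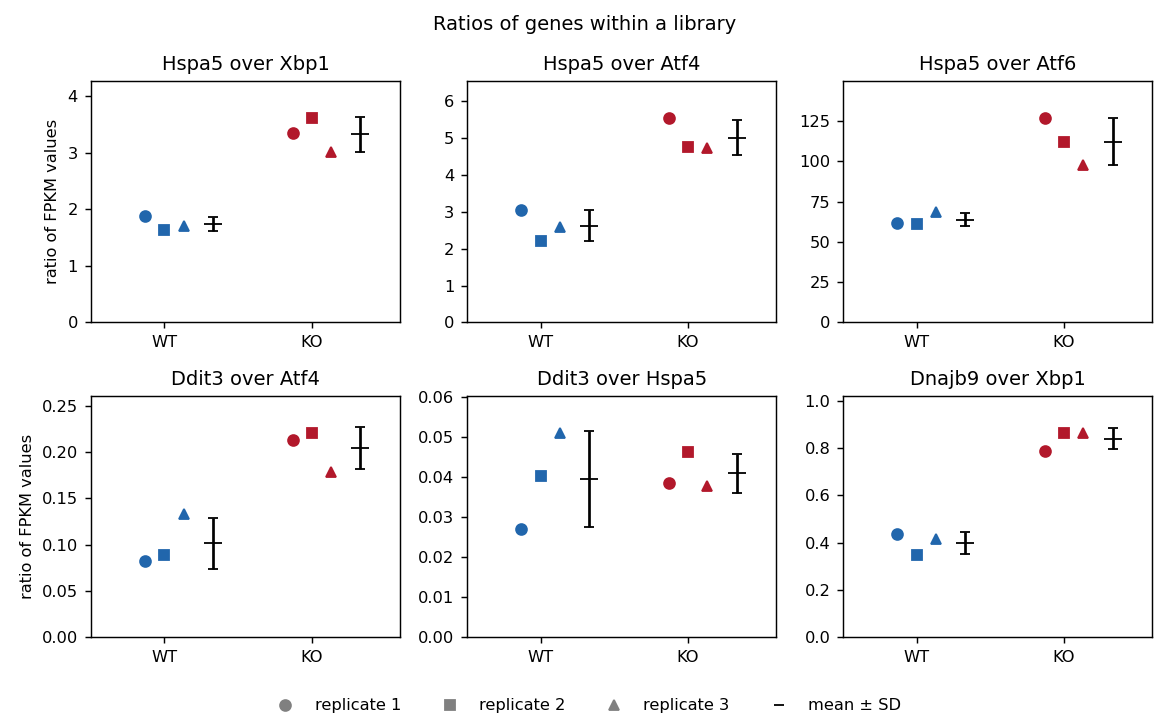
Ratio of the FPKM values of 2 genes within each library (y axes, from 0), WT in blue and KO in red, with the mean and SD in black. The KO libraries lie above the WT libraries for the 5 ratios other than Ddit3 over Hspa5, whose groups overlap.

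The genes closest in profile were sought among 4496 other tested genes with a mean of at least 5 FPKM, by the root mean square difference of centred log2 values over the 6 libraries. For Xbp1 they were Dctn3, Cfl2 and Carhsp1 (0.037, 0.037 and 0.040), and for Atf4 they were Swi5, Dync1i2 and Mvp (0.031, 0.036 and 0.037), all with log2 fold changes between -0.12 and -0.02. For Ddit3 they were Zfp809, Cdk2ap2 and Mbd1 (0.141, 0.164 and 0.170). These had log2 fold changes of 0.66, 0.61 and 0.82 (limma adjusted p = 0.150, 0.133 and 0.0715). The distance grows with the spread of a gene over the libraries, so that of Ddit3 cannot be set against those of the flatter Xbp1 and Atf4. All neighbours were picked on the same 6 libraries, so their fold changes follow from that choice.

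The tissue was liver by its markers, and markers of some other cells lay lower in KO. The 7 hepatocyte markers summed to 19200 to 22900 FPKM in KO and 21300 to 27800 FPKM in WT, all 7 with a negative log2 fold change (median -0.24) and none called. Of 5 tested Kupffer cell and macrophage markers 4 were negative (median -0.55), of 4 of sinusoidal endothelium all 4 (median -0.28), and of 4 of neutrophils 3 (median -0.13), with none called. The summed levels in KO and WT were 19.7 to 24.1 and 22.9 to 31.6 FPKM for Kupffer cells and macrophages, 13.9 to 20.5 and 16.1 to 26.4 FPKM for endothelium, and 105 to 113 and 99.8 to 156 FPKM for neutrophils. Stellate cell markers summed to 21.7 to 23.5 and 22.8 to 31.0 FPKM, and cholangiocyte markers to 39.8 to 75.0 and 41.6 to 62.4 FPKM. Of 3 tested cholangiocyte markers 2 were positive (median 0.28), with none called. Most of the stellate sum was Dcn. Among the low stellate markers, Lrat lay at 0.253 to 0.347 FPKM in KO and 0.982 to 1.99 FPKM in WT. Col1a1 went the other way, at 0.690 to 1.34 FPKM in KO and 0.515 to 0.700 FPKM in WT.

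Markers of plasma cells, which carry much Xbp1 and Derl3, were low. Mzb1 was at 0 in 5 of the 6 libraries and at 0.0443 FPKM in KO replicate 2, and Jchain lay between 0.630 and 1.38 FPKM. The 8 lymphocyte and plasma cell markers summed to 2.34 to 3.13 FPKM in KO and 1.63 to 2.33 FPKM in WT. The KO sums were thus narrowly higher without overlap. Derl3, also low, was higher in KO too, at 1.76 to 4.96 FPKM against 0.274 to 0.701 FPKM in WT. None of the 8 markers passed the filter. The part of any of these cells in the results was not tested, and in bulk tissue fewer cells of a type and less RNA per cell cannot be told apart.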

How the data were processed

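Liver RNA of 6 libraries was sequenced, 3 KO and 3 WT, grouped by the sample titles. The deposited FPKM values (fragments per kilobase and library size, by the authors) came as 1 table with no unused columns. Per the submitters' processing notes, HISAT2 2.0.5 was used; hg38 and mm39 both appear there, with no role. The counting tool, strand setting and annotation: not given in the sources used here. A library note names a single-cell platform, but the table has 1 column per library and was treated as bulk tissue. Per the labels' protocols RNA was extracted with Trizol.

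From these values, genes that reached 1 FPKM in 3 or more libraries (9218) were divided by median-of-ratios factors and tested on log2(FPKM + 1) with limma 3.58.1 in R 4.3.3 (eBayes with trend, two-sided, 4 residual degrees of freedom), adjusted by Benjamini-Hochberg over all tested genes. This scale understates changes of low genes. Whole reads were recovered from the FPKM steps to within 0.0001 reads for 19611 rows (99.99%) and used with limma-voom. On 9216 genes simulated from the reads of this comparison, limma called 17 unchanged genes, 93% of those changed by 1 on the log2 scale and 100% of those changed by 2. The simulation gave every gene the same fixed dispersion, not estimated from these libraries, and changed only genes above a set level. These shares are therefore not the power of the comparison of KO with WT. Named genes were the 10 genes, list genes that passed, the 3 of lowest p per list, and the nearest profiles. The members and lists were chosen with earlier results of these data known. Other named genes and the ratios were chosen after their values were seen. The targeted gene is not reported here.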

Additional observations from a re-analysis of the deposited data

How the results depend on the processing

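The count of 99 genes became 2703 in the values as deposited (2648 higher), 31 with no filter on low values, 61 with a mean of at least 5 FPKM and 298 with the replicate number as a block, and it ranged from 20 (without KO replicate 1) to 97 with 1 library left out; it was 45 without KO replicate 3, 48 without WT replicate 2 and 54 without WT replicate 3. Of the 10 genes, 5 passed as deposited, 1 as TPM and 1 under the replicate block (Ddit3 in each, adjusted p = 0.0455 under the block, where Asns had 0.0501), and 0 with any 1 library left out. The labels do not say whether libraries of the same replicate number belong together. Their deviations correlated at 0.328, 0.473 and 0.018, and 3 of 6 libraries were closest to their own number. These values do not settle whether the libraries were paired. Of 176 values of single genes under the alternatives, 154 kept their direction and side of the threshold, 7 gained a call and 15 changed sign. The changes of sign were, as deposited, Ern1 (0.16), Xbp1 (0.48), Atf4 (0.47) and Chac1 (0.47); with quantile normalization Xbp1 (0.021) and Atf4 (0.031); as TPM Xbp1 (0.012), Atf4 (0.0057) and Chac1 (0.041). With a library left out, Atf6 turned negative (from -0.0315 to 0.10 over the 6 fits; -0.0062 without KO replicate 3), Xbp1 ranged from -0.17 to 0.016, and Chac1 from -0.31 to 0.22 (0.0115 and 0.0211 without WT replicates 1 and 3). Apart from the scaling behind the deposited values, the cause was not tested. Counting error is small for these genes, whose lowest count is 203 reads; 3 libraries per genotype limit the precision.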

Other observations

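Several ATF4 target genes varied widely between libraries of 1 genotype. Replicate 2 was the lowest KO library and the lowest WT library for Chac1, Asns and Trib3, for Psat1 and Mthfd2, which serve serine and one-carbon metabolism, and for Eif4ebp1, a translation repressor. Mthfd2 stood at 11.5, 7.40 and 14.7 FPKM in KO and 11.8, 7.79 and 12.1 FPKM in WT, and Psat1 at 2.96, 1.54 and 4.25 FPKM in KO and 2.43, 0.952 and 2.94 FPKM in WT. Replicate 2 was lowest in both genotypes for 8 of 12 tRNA synthetases (66.7%), 60.0% of the eIF2 list, 53.3% of the stress regulators, 36.4% of the amino acid genes, 33.3% of the ER chaperones, 21.7% of the IRE1-XBP1 targets, 11.1% of the other sensors and regulators and 6.67% of the ATF6 targets, beside 18.1% of all tested genes. Atf4 RNA was highest in WT replicate 2, at 123 FPKM. This pattern was noticed after the values were seen, replicate numbers carry no stated meaning, and it was not tested.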
